A study of Cavia porcellus with 72 samples.

Results

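The mean effect of prenatal betamethasone on hippocampal mRNA was measured over all 36 RNA-seq libraries of the series, as the average of the sGC against control differences within F1, F2 and F3. Betamethasone is a synthetic glucocorticoid (sGC). F1 gave 6 control and 5 sGC libraries, F2 6 and 6, and F3 6 and 7, 1 per animal, and the series holds 72 samples in all. All were female Dunkin-Hartley guinea pigs killed on postnatal day 40. The sGC animals of F1 were daughters of F0 pregnancies that received 3 courses of betamethasone, and control daughters came from pregnancies given saline. F2 and F3 descended through F1 and then F2 males mated with females from outside the study, so only the F0 pregnancy was treated. By the study's methods the animals came from separate mothers. The labels of the RNA libraries name no families, so descent shared between animals of different generations was not taken into account. A library sampled powdered tissue of the right hippocampus, so a shift in cell number and a shift in RNA per cell cannot be told apart. The members were the 11446 genes present in all 3 tables, which held 11651, 11716 and 11663 genes, and 11390 had enough reads to be tested.

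Glucocorticoids act through the glucocorticoid receptor (NR3C1) and the mineralocorticoid receptor (NR3C2), both abundant in the hippocampus. These receptors are held ready for ligand by heat shock chaperones, move to the nucleus and change transcription of target genes. In the fetus the hormone promotes maturation of the lung and brain, and the hippocampus takes part in shutting off the stress response. Fetal cells of F1 and their germ cells were exposed directly, whereas F3 cells were not. A mean over generations asks which genes were shifted the same way in animals at different distances from the treatment.

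Total reads over the shared genes ran from 13303070 to 19635338 per library. Every pair of libraries from 1 group was further apart than counting error allows (chi-square over its degrees of freedom at least 2.15), so no library was counted as a repeat. The labels number the libraries. The numbers 32 to 36 stand outside the run of their generation, and all 5 such libraries are sGC: replicates 4 (number 35) and 5 (number 32) of F1, replicate 6 of F2 (33), and replicates 5 (36) and 6 (34) of F3. What the numbers stand for is not given, so the counts, the lists with calls and the genes shown library by library are also given over the other 31 libraries. Of the genes tested, 484 (4.25%) had control means over 2-fold apart between generations, and for 446 of them it was F2 that stood apart. Whether the tables count the same features for these genes was not tested. Each sGC library was set only against controls of its own generation, so such levels do not enter the differences directly.

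Over all 36 libraries the sGC lineage carried a small shift in many genes. In edgeR's quasi-likelihood test, 771 genes (6.77% of 11390) had a Benjamini-Hochberg adjusted p below 0.05. Of these, 445 (3.91%) were higher and 326 (2.86%) lower in sGC animals. Postsynaptic scaffold genes, astrocyte markers and cytosolic ribosomal protein genes supplied called genes on the higher side. Chaperones, proteasome subunits and respiratory chain subunits supplied them on the lower side. The likelihood ratio test called 948 genes (8.32%), DESeq2 1066 (9.36%), limma-voom 758 (6.65%) and a fit of 6 group means 971 (8.53%). RLE scaling gave 776 (6.81%), no filter on low counts 768 (6.71%), a mean CPM of 1 or more 799 (7.23%), leaving out genes with control means over 2-fold apart 762 (6.99%) and a replicate block 410 (3.6%).

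The sizes were small. The median log2 fold change was 0.13 for the higher genes and -0.09 for the lower genes. Of the 771 genes, 715 changed by less than 0.2 on the log2 scale and 1 by more than 0.5. Of the called genes, 90.9% had the same sign in all 3 generations, against 33.9% of all genes tested; the same libraries made the mean, so this is a description. The median in the higher genes was 0.19 in F1, 0.06 in F2 and 0.15 in F3, and in the lower genes -0.10, -0.04 and -0.13. F2 thus lay nearest to 0 on both sides. No gene had sGC libraries clear of the control libraries in all 3 generations. In 33 of the called genes all 18 sGC libraries lay beyond the control mean of their generation in the direction of the call. The same count over all genes was not made. At least 15 of 18 did so in 576 of the 771 called genes, against 1229 of all 11390 genes tested. The same libraries made the calls, so these counts too are descriptions.

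The calls depended on the libraries numbered 32 to 36. Leaving all 5 out also lowers the number of sGC libraries to 13, and the part of this smaller number in the loss of calls was not tested. Without library 35 alone, 393 genes were called, 226 higher and 167 lower, and without library 33 the higher genes came to 275. Single controls moved the counts as well: without F3 control replicate 6 there were 455 genes, 269 higher and 186 lower, without F1 control replicate 3 207 lower genes, and without F3 control replicate 4 217 lower genes. Over the other 31 libraries 1 gene was called (0.00876% of 11418), and 1422 (12.5%) had an unadjusted p below 0.05. That gene was SEPT11, which codes for a septin, a protein of membrane-bound filaments, so no other gene described here was called over the 31 libraries. The likelihood ratio test called 57 genes over the same 31 libraries (0.499%), DESeq2 172 (1.51%), and an edgeR fit of 6 group means with equal weight for each generation 54 (0.473%). With a term for the 5 libraries in the fit 0 genes were called, the smallest adjusted p was 0.0762, and 1349 genes had an unadjusted p below 0.05. All 771 genes kept the sign of their change over the 31 libraries, at a median of 0.093 for the higher and -0.073 for the lower genes. For the 5 libraries alone against all controls these medians were 0.22 and -0.15. That comparison called 2122 genes (18.6%). The 5 libraries against the other 13 sGC libraries gave 0 called genes and 1321 (11.7%) with an unadjusted p below 0.05 in the same test. Because no control has such a number, a difference in how these 5 libraries were made and the sGC lineage cannot be told apart in them.

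**Figure D1:**
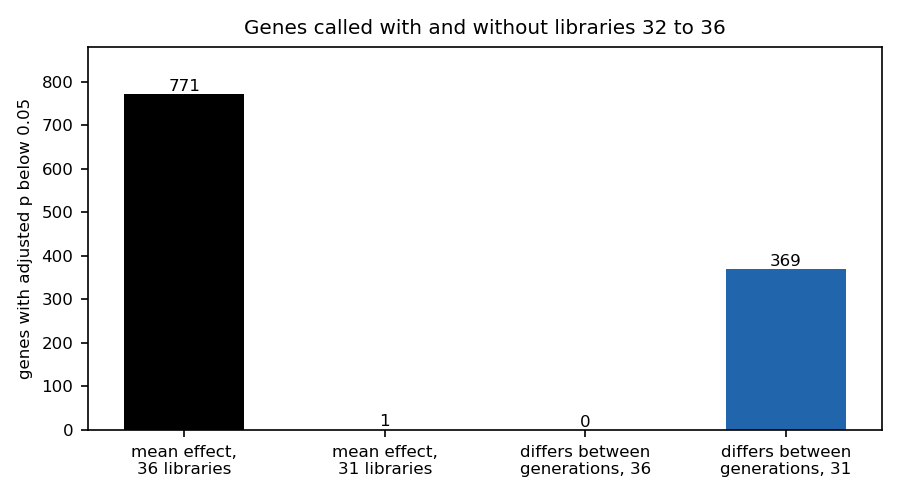
Number of genes (vertical axis) with an adjusted p below 0.05 for the mean sGC effect and for a difference of the sGC effect between generations, over 36 libraries (black) and over 31 libraries without those numbered 32 to 36 (blue). The mean effect fell from 771 to 1 called gene, and the difference between generations went from 0 to 369.

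Whether the 3 generations differed in their sGC effect was tested as an interaction. Over 36 libraries 0 genes (0% of 11390) passed edgeR's quasi-likelihood test, with a smallest adjusted p of 0.0543; 1778 (15.6%) had an unadjusted p below 0.05, and the likelihood ratio test called 138. Over the 31 libraries 369 genes (3.23% of 11418) passed. In 283 of the 369, F1 and F3 differed from control in opposite directions. The same libraries chose the 369 genes, which favours opposite signs, and the share over all genes was not counted, so this is a description. Leaving out replicate 4 of the F1 sGC group alone, library 35, gave 318 genes that differed between generations, whatever their directions. Over the 31 libraries, then, more genes passed for a difference between generations (369) than for the mean (1) in edgeR's quasi-likelihood test. These counts do not give the number of genes with each kind of effect. DESeq2 called 172 genes for the mean over the same libraries. Of the 771 genes, which were called with the 5 libraries included, 748 had an unadjusted p below 0.05 there in edgeR.

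Genes at which this could be seen best in those 31 libraries included CNR1, the main cannabinoid receptor of the brain. Its log2 fold change was 0.42 in F1, -0.016 in F2 and -0.20 in F3 (adjusted p = 0.00567 for the difference in edgeR's quasi-likelihood test). For GNAQ, a G protein subunit downstream of many receptors, these values were 0.38, -0.04 and 0.02 (adjusted p = 0.00847 in edgeR). Both were chosen after their values were seen.

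Genes called for the mean of 2 generations were set against the other generation, which had no part in choosing them. These lists are not the 771 genes: 283 of those called without F1 and 600 of those called without F2 were among the 771. Genes called in F2 and F3 together (475, 4.19%) were read in F1. Of the 219 higher genes, 81.3% were also higher in F1, and of the 256 lower genes 21.1% were, against 48.2% of all genes tested. Without libraries 32 and 35 these shares were 36.5% and 58.2%, against 47.5% of all genes, so the direction in F1 turned when only the other 3 F1 sGC libraries were used. Genes called in F1 and F3 together (1162, 10.3%) were read in F2 in the same way. There 58.8% of 624 higher and 40.7% of 536 lower genes were higher, against 49.4% of all genes. Without library 33 the shares were 45.4% and 53.7%, against 50.6%. The mean of F1 and F2 called 0 genes (0% of 11345, 1467 with an unadjusted p below 0.05, 19 by the likelihood ratio test), so F3 could not be read this way.

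A score per library showed which animals carried these shifts. The score is the mean log2 CPM of the higher genes minus that of the lower genes, set to 0 for the controls of the generation, over genes called without that generation. In F1 the controls scored -0.12 to 0.21, sGC replicates 1 to 3 scored 0.0017, -0.065 and -0.079, library 35 scored 0.67 and library 32 scored 0.14. Only library 35 lay above all F1 controls. In F2 the controls ran from -0.073 to 0.12, sGC replicates 1 to 5 from -0.079 to 0.011, and library 33 scored 0.20. Only library 33 lay above all F2 controls on these genes, which were called with libraries 32, 34, 35 and 36 among the samples.

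The picture in F2 changed when F3 genes called without libraries 34 and 36 were used (313 genes, 2.79% of 11230; 159 higher and 154 lower), a choice made after the data were seen. On these genes the F2 controls scored -0.071 to 0.041 and the 5 F2 sGC libraries with other numbers -0.0065 to 0.13, with a median of 0.056. Of these 5 libraries 4 lay above all F2 controls, and library 33 scored 0.22. Over the 31 libraries, 78.6% of the 159 higher and 31.2% of the 154 lower genes were higher in F2, against 50.6% of all genes. F2 and F3 thus moved the same way on these genes with all 5 libraries left out.

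F1 did not show this. There 47.2% of the higher and 55.2% of the lower genes were higher over the 31 libraries, against 47.5% of all genes. The F1 controls scored -0.11 to 0.25 on them and sGC replicates 1 to 3 scored -0.034 to -0.018, within the controls. Library 35 scored 0.80, above all F1 controls, and library 32 scored 0.17. With the F3 test over all its libraries, 2 of the 5 F2 sGC libraries with other numbers lay above all F2 controls and all 5 above the control median, and none of the F1 replicates 1 to 3 lay above all F1 controls. With the genes of the F1 test, none of the 5 in F2 did, and library 33 at 0.15 lay within the controls, which reached 0.18.

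For F3 the genes of the F1 test alone served (237 genes, 2.11%). The 6 F3 controls scored -0.25 to 0.17 on them. The 5 F3 sGC libraries with other numbers scored -0.17 to 0.23, and 2 of them lay above all controls. Library 36 scored 0.069, within the control range, and library 34 scored 0.30, above all controls.

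**Figure D2:**
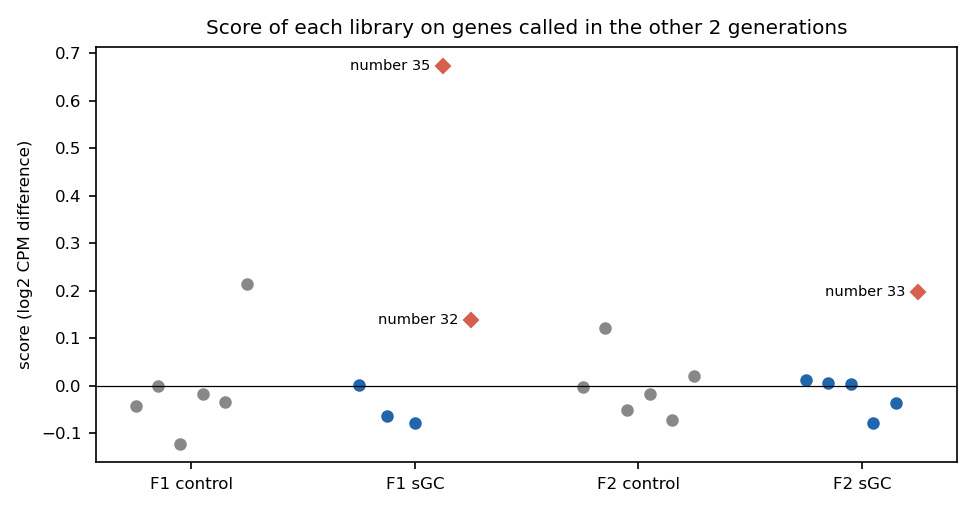
Score of each F1 and F2 library (vertical axis, difference in mean log2 CPM) on genes called for the mean of the 2 other generations, with controls in grey, sGC libraries in blue and sGC libraries numbered 32 to 36 as red diamonds. Number 35 scored 0.67 and number 33 scored 0.20, while the other sGC libraries of F1 and F2, number 32 apart, scored between -0.079 and 0.011.

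The higher genes with the smallest p and the same sign in 3 generations were SEPT11, NPNT, ZBTB44, CAPN10, NFIA, ULK2, VTI1A, TSHZ1, TRAF3, ZSCAN29, PURB and DEF8. They include transcription regulators, an autophagy kinase (ULK2), a SNARE of endosomes (VTI1A), a calpain protease (CAPN10) and an adaptor of TNF receptor signalling (TRAF3). Their log2 fold changes ran from 0.11 (ULK2) to 0.25 (NPNT). All 12 stayed called when any 1 library was left out. Over the 31 libraries SEPT11 alone of them stayed called (adjusted p = 0.0328 in edgeR's quasi-likelihood test).

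NPNT codes for nephronectin, an extracellular matrix ligand of integrin alpha 8. In F1 its levels were 33.6 to 46.3 CPM (reads per 1e+06 of the library, scaled by TMM) in controls, with a median of 43.9, and 42.2, 59.5, 43.2, 61.8 and 55.7 CPM in sGC replicates 1 to 5. In F2 they ran from 60.4 to 69.6 CPM in controls (median 63.9) and from 70.6 to 81.1 CPM in sGC animals (median 73.5). In F3 the range was 38.1 to 44.3 CPM in controls (median 39.9) and 43.2 to 53.1 CPM in sGC animals (median 47.9). The groups overlapped in F1 and F3 and did not overlap in F2. The log2 fold change was 0.25 ± 0.042 (SE, 18 control and 18 sGC libraries; adjusted p = 0.00284 in edgeR's quasi-likelihood test). NPNT was higher by a similar amount in each generation, at 0.30, 0.22 and 0.25. Over the 31 libraries it was 0.22 with an adjusted p of 0.0545.

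SEPT11 stood at other levels in the F2 table than in the F1 and F3 tables. Control levels were 121 to 132 CPM in F1 (median 127.9), 525 to 552 CPM in F2 (median 541) and 126 to 136.7 CPM in F3 (median 133). The sGC levels were 137.5, 142.7, 135, 168 and 139 CPM in F1, 545 to 584 CPM in F2 (median 559) and 143.8 to 156 CPM in F3 (median 150). The groups did not overlap in F1 or F3 and overlapped in F2. The log2 fold change was 0.14 ± 0.023 (SE, 18 and 18 libraries; adjusted p = 0.00284 in edgeR). PURB, a nucleic acid binding protein of neurons, also had control means over 2-fold apart between tables. As percents of the control mean of their own generation, its 13 sGC libraries with other numbers lay between 99.4% and 118.9%. Controls of the 3 generations together lay between 87.8% and 119.5%. Within F3 these sGC libraries, at 381.3 to 436.1 CPM, all lay above the controls, at 349.8 to 380.9 CPM. In F1 and F2 they overlapped the controls.

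NFIA codes for a transcription factor that turns neural progenitors towards glia. Relative to the control mean of their own generation, taken as 100%, its 18 control libraries lay between 88.0% and 109%, the 13 other sGC libraries between 96.9% and 121% and the 5 libraries 32 to 36 between 111% and 133%. All 5 lay above every control, and so did 7 of the 13. Its log2 fold change was 0.16 ± 0.031 (SE, 18 and 18 libraries; adjusted p = 0.00654 in edgeR), and 0.11 over the 31 libraries (adjusted p = 0.0809).

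The 12 lower genes with the smallest p were ANO4, MORF4L2, Maob, CCT4, DPAGT1, MDH1, AUH, MPP1, ASNS, HSPA8, PTRH2 and EID2. Many are enzymes: monoamine oxidase B (Maob), cytosolic malate dehydrogenase (MDH1), an enzyme of mitochondrial leucine breakdown (AUH), asparagine synthetase (ASNS) and the enzyme that starts the sugar chain of N-glycosylation (DPAGT1). Their log2 fold changes ran from -0.17 (HSPA8) to -0.10 (DPAGT1). PTRH2 and EID2 had control means over 2-fold apart between tables. In the other 31 libraries, none of the 12 was called, with adjusted p from 0.0545 to 0.0997 in edgeR.

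DPAGT1 and ANO4 changed most evenly. DPAGT1 was at 34.8 to 39.4 CPM in F1 controls (median 36.3) and at 35.7, 33.4, 34.5, 32.8 and 33.6 CPM in the F1 sGC animals. F2 controls had 23.99 to 26.6 CPM (median 25.4) and F2 sGC animals 23.1 to 24.6 CPM (median 23.7). F3 controls had 36.1 to 39.7 CPM (median 36.7) and F3 sGC animals 33.8 to 35.5 CPM (median 34.8). The groups overlapped in F1 and F2 and did not overlap in F3, and all 18 sGC libraries lay below the control mean of their generation. The log2 fold change of DPAGT1 was -0.099 ± 0.019 (SE, 18 and 18 libraries; adjusted p = 0.00654 in edgeR), made of -0.10, -0.09 and -0.10 in the 3 generations. ANO4, a calcium-dependent channel or scramblase of the anoctamin family, had -0.16, -0.15 and -0.14, and its mean of -0.15 ± 0.027 passed with an adjusted p of 0.00632. In both genes the 31 libraries gave nearly the same size, -0.096 for DPAGT1 and -0.13 for ANO4, with an adjusted p of 0.0809 for each.

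**Figure D3:**
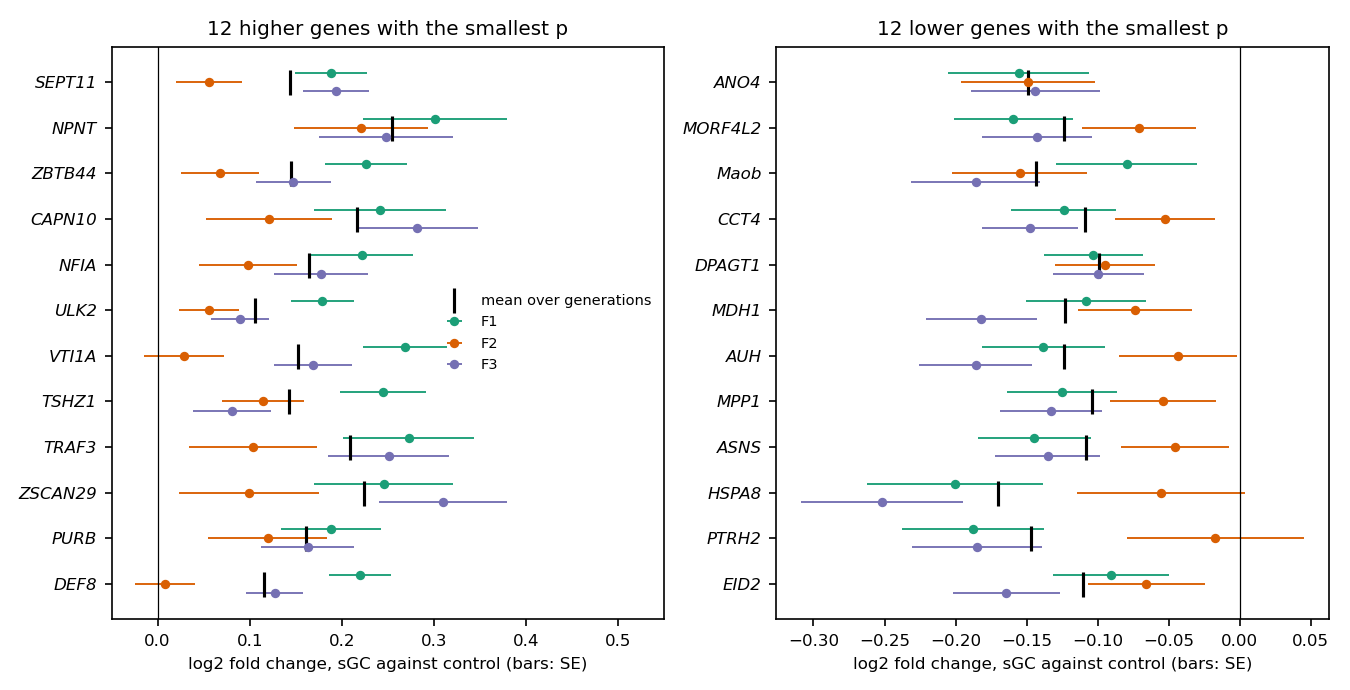
Log2 fold change of sGC against control (horizontal axis, bars are SE) in F1, F2 and F3, and its mean over the generations (black tick), for the 12 higher and 12 lower genes named above. All points of a gene lie on 1 side of 0 because the genes were chosen so, and F2 lies nearest to 0 for most of them, as for DEF8 at 0.0080.

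**Figure D4:**
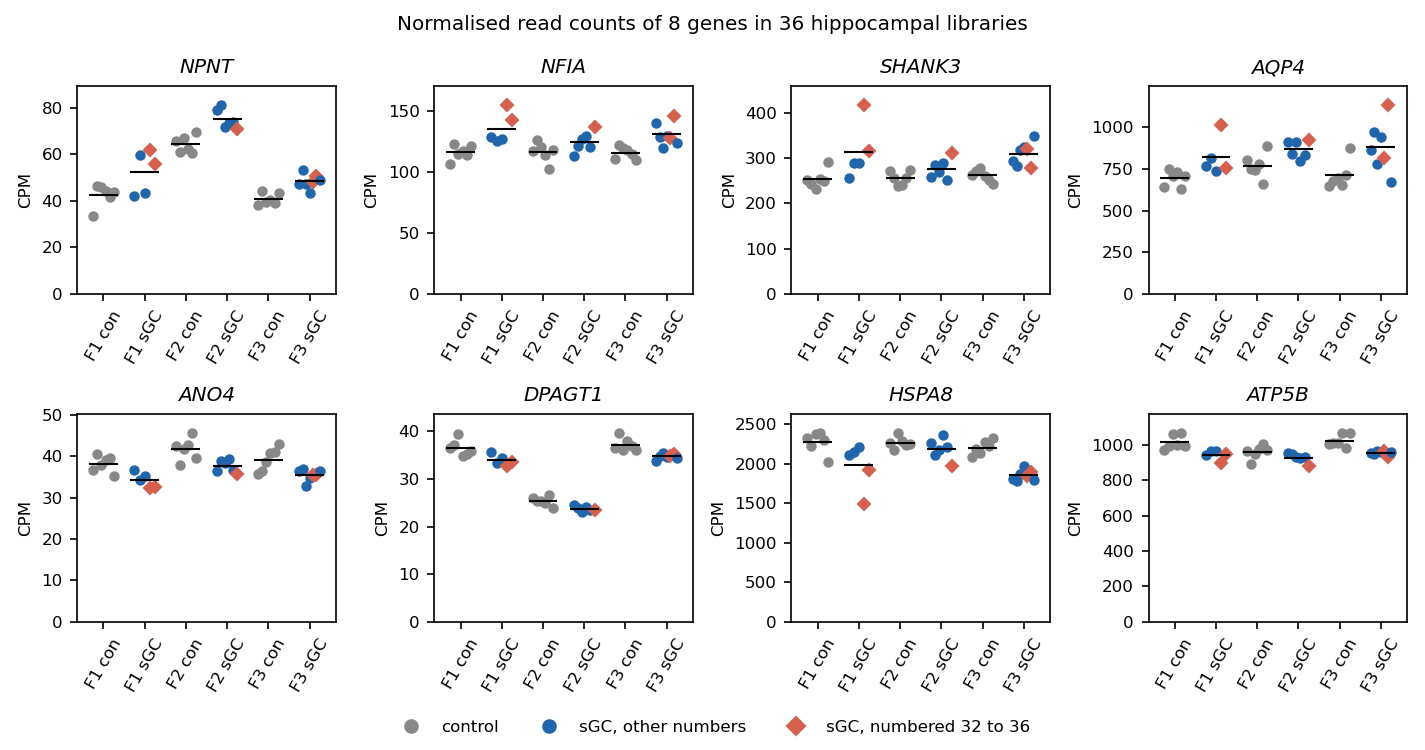
Normalised read counts (CPM, vertical axis from 0) of 8 genes in each library by group, with the group mean as a line, other sGC libraries in blue and those numbered 32 to 36 as red diamonds. Library 35 of F1 lies highest in NPNT, NFIA and SHANK3 and lowest in HSPA8 within its group, while in DPAGT1 the diamonds lie close to the other sGC points.

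Chaperones fold new proteins and hold steroid receptors ready for hormone. In the list of heat shock proteins and chaperonins 0 of 30 genes tested were called higher and 15 lower, with 26 below 0 and a median log2 fold change of -0.07. Over all genes tested, 3.91% were called higher and 2.86% lower and the median was 0.001, and the lists that follow are to be read against these shares. Without libraries 32 to 36, 0 were called, 17 of 30 had a negative change with an unadjusted p below 0.05, and the median was -0.06; for libraries 32 to 36 alone it was -0.13. The called genes were subunits of the TRiC chaperonin, which folds actin and tubulin, and members of the Hsp70 and Hsp90 systems.

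HSPA8, the constitutive Hsp70, was at 2017 to 2395 CPM in F1 controls (median 2316) and at 2110, 2155, 2218, 1489 and 1927 CPM in F1 sGC replicates 1 to 5. F2 controls had 2171 to 2386 CPM (median 2258) and F2 sGC animals 1971 to 2372 CPM (median 2192). F3 controls had 2087 to 2324 CPM (median 2207) and F3 sGC animals 1778 to 1975 CPM (median 1847). In F3 the groups did not overlap, and in F1 and F2 they did. The log2 fold change of HSPA8 was -0.17 ± 0.036 (SE, 18 and 18 libraries; adjusted p = 0.00891 in edgeR). It was -0.20 in F1, -0.06 in F2 and -0.25 in F3, and -0.13 over the 31 libraries. Chaperonin subunits fell by less, at -0.11 for CCT4, -0.12 for CCT8 and -0.09 for CCT3.

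The list of corticosteroid receptors and cofactors shared part of these genes. Of 17 tested, 1 was called higher and 4 lower (29.4%, against 6.77% of all genes), with a median of -0.03. With libraries 32 to 36 left out, 0 were called, 6 had an unadjusted p below 0.05 in edgeR, and the median was -0.04. The 4 lower genes were chaperones of the receptor complex: HSPA8, HSPA4, HSP90AA1 (-0.10 ± 0.025, adjusted p = 0.0147 in edgeR) and STIP1 (-0.098 ± 0.023, adjusted p = 0.0136), which links Hsp70 to Hsp90. The receptors themselves, named here after their values were seen, did not pass. NR3C1 had a log2 fold change of 0.06 ± 0.027 (adjusted p = 0.143), and NR3C2 had -0.05 ± 0.026 (adjusted p = 0.281, with 0.04 in F1, 0.01 in F2 and -0.18 in F3). FKBP5, the cochaperone that rises with glucocorticoid exposure in many tissues, had -0.03 ± 0.058 (adjusted p = 0.802). NR3C1 lay between 90.4% and 107% of the control mean in controls and between 90.7% and 123% in the 18 sGC libraries.

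None of the 16 glucocorticoid target genes tested was called (1 had an unadjusted p below 0.05), and their median was 0.007. GLUL, glutamine synthetase, had 0.12 ± 0.045 (adjusted p = 0.104 in edgeR) and KLF15 had 0.08 ± 0.041 (adjusted p = 0.257). Of 14 stress neuropeptides and their receptors 0 were called (3 with an unadjusted p below 0.05). CRH, the peptide that drives the stress axis, was at a low level, with a mean of 2.0 CPM in controls and 1.66 CPM in sGC animals, with -0.25 ± 0.12 (adjusted p = 0.181), and its receptor CRHR2 had 0.15 ± 0.060 (adjusted p = 0.118). Among 17 immediate early genes, which report recent neuronal activity, 1 was called (5.88%, against 6.77% of all genes). This was EGR4, at 0.09 ± 0.020 (adjusted p = 0.00935), with 0.10, 0.08 and 0.10 in the 3 generations and the same size, 0.09, over the 31 libraries. Of 18 clock genes 2 were called (11.1%), and over the 31 libraries 0, with 3 at an unadjusted p below 0.05 in edgeR. CLOCK, a transcription factor of the circadian loop, was at 0.15 ± 0.042 (adjusted p = 0.0243) and RORA, a receptor that drives it, at 0.13 ± 0.040 (adjusted p = 0.0354). RORA owed its mean to F1, with 0.38 there, 0.006 in F2 and 0.05 in F3, and lost its call in 7 of 36 fits without 1 library.

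Postsynaptic scaffolds anchor glutamate receptors below the synapse. Of 16 tested, 8 were called higher and 1 lower (56.2%, against 6.77% of all genes), and the median was 0.08, or 0.07 over the 31 libraries, where 0 were called and 10 had an unadjusted p below 0.05. SHANK3, a master scaffold, was at 232 to 291 CPM in F1 controls (median 249) and at 256, 289, 290, 417 and 315 CPM in F1 sGC animals. F2 controls had 238 to 274 CPM (median 257) and F2 sGC animals 251 to 310 CPM (median 276). F3 controls had 243 to 278 CPM (median 262) and F3 sGC animals 277 to 348 CPM (median 318). The groups overlapped in every generation, in F3 by 1 library. The log2 fold change of SHANK3 was 0.22 ± 0.044 (SE, 18 and 18 libraries; adjusted p = 0.00748 in edgeR), that of SHANK1 0.24 ± 0.050 (adjusted p = 0.0081), that of HOMER2, which ties scaffolds to metabotropic receptors, 0.17 ± 0.034 (adjusted p = 0.00781), and that of CAMK2A, a kinase of synaptic plasticity, 0.18 ± 0.044 (adjusted p = 0.0156). In the other 31 libraries, SHANK3 had 0.16 (adjusted p = 0.0809 in edgeR). In all 4 genes F1 was highest and F2 lowest, as in SHANK1 with 0.39, 0.10 and 0.25. DLG3, a receptor-binding scaffold named after its value was seen, was the 1 lower gene at -0.09 ± 0.027 (adjusted p = 0.0424).

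The receptors these scaffolds hold did not pass. Of 18 glutamate receptor subunits 0 were called and 5 had an unadjusted p below 0.05, 2 of them higher and 3 lower. Of the 18, 11 were below 0, with a median of -0.03. Of 11 GABA-A receptor subunits 0 were called and 3 had an unadjusted p below 0.05, 1 higher and 2 lower. GABRG1 alone of the 11 was above 0 and 10 were below, with a median of -0.06. Without F1 2 GABA-A subunits were called lower, and without F2 1 higher and 1 lower. GRM5 had 0.15 ± 0.053 (adjusted p = 0.0798 in edgeR), with 0.43 in F1, -0.01 in F2 and 0.06 in F3. GABRG1 had 0.20 ± 0.071 (adjusted p = 0.0744), with 0.67 in F1, -0.03 in F2 and 0.05 in F3, and the difference of GABRG1 between generations had an adjusted p of 0.0543, the smallest over 36 libraries and shared with DOK6. On the presynaptic side, 25 vesicle and SNARE genes gave 1 higher and 2 lower calls (12%, against 6.77% of all genes) and a median of -0.05. Without libraries 32 to 36, 0 were called, 9 had an unadjusted p below 0.05 in edgeR, and the median was -0.02, against -0.08 in libraries 32 to 36. Without F1 7 were called lower. RIMS1, an active zone scaffold, was higher at 0.15 ± 0.037 (adjusted p = 0.0148). The vesicle proteins SYP and SV2A were lower at -0.12 ± 0.031 (adjusted p = 0.0251) and -0.12 ± 0.037 (adjusted p = 0.0499), and SV2A lost its call in 22 of 36 fits without 1 library. Of 62 potassium channel genes 1 was called higher and 1 lower (3.23%), and over the 31 libraries 0, with 13 at an unadjusted p below 0.05. The lower gene was Kcnk7 (-0.10 ± 0.032, adjusted p = 0.0465 in edgeR), which was named after its value was seen and whose control means were over 2-fold apart between tables.

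**Figure D5:**
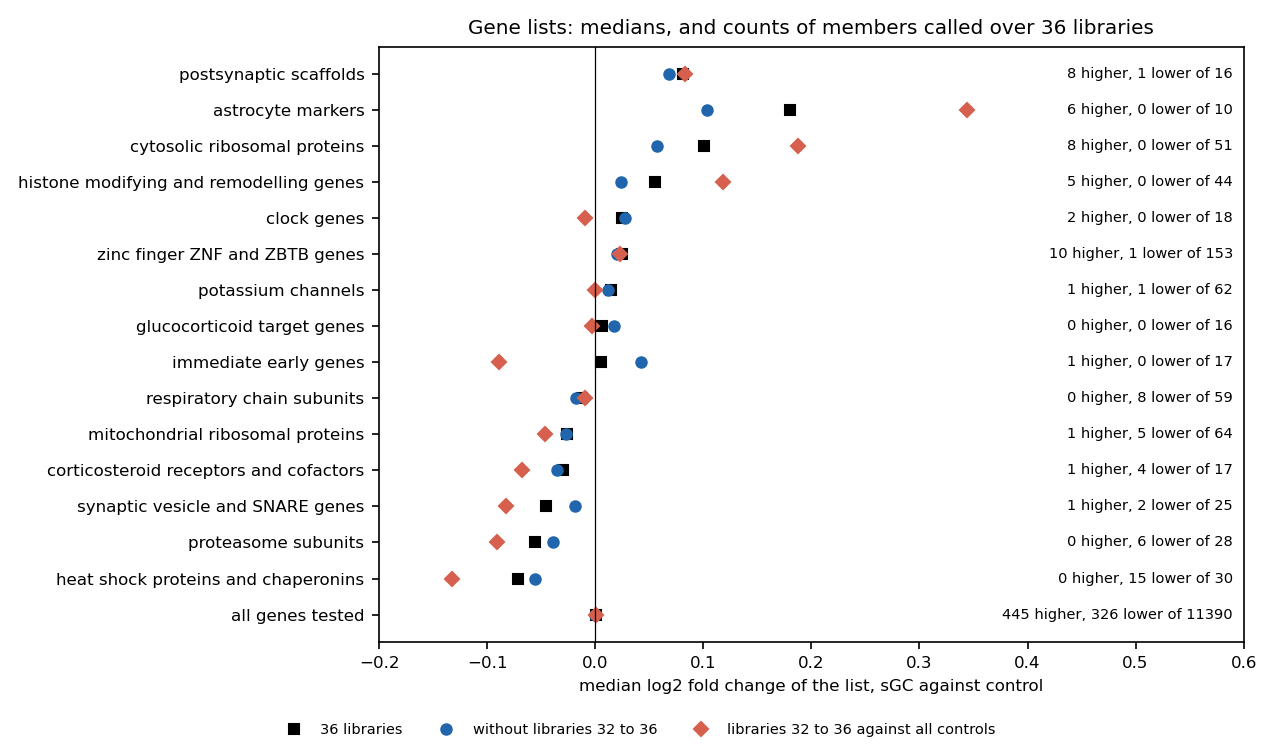
Median log2 fold change of sGC against control (horizontal axis) of 15 gene lists and of all genes tested, over 36 libraries (black squares), over 31 libraries (blue circles) and for libraries 32 to 36 against all controls (red diamonds), with the counts of members called over 36 libraries at the right. Astrocyte markers lie at 0.18, 0.10 and 0.34 on the 3 measures, and heat shock proteins and chaperonins at -0.07, -0.06 and -0.13.

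Of 10 astrocyte markers tested, 6 were called higher and 0 lower (60% higher, against 3.91% of all genes), all 10 were above 0, and the median was 0.18. With libraries 32 to 36 left out, 0 were called, 7 had an unadjusted p below 0.05 in edgeR, all 10 were above 0 and the median was 0.10. By generation the median over 36 libraries was 0.25 in F1, 0.01 in F2 and 0.21 in F3. AQP4, the water channel of astrocyte endfeet, was at 632 to 747 CPM in F1 controls (median 708) and at 768, 818, 737, 1016 and 755 CPM in F1 sGC animals. F2 controls had 658 to 887 CPM (median 763) and F2 sGC animals 796 to 926 CPM (median 875). F3 controls had 649 to 874 CPM (median 686) and F3 sGC animals 674 to 1134 CPM (median 863). The groups overlapped in every generation. The log2 fold change of AQP4 was 0.24 ± 0.051 (SE, 18 and 18 libraries; adjusted p = 0.00863 in edgeR). The glutamate transporter SLC1A2 had 0.23 ± 0.062 (adjusted p = 0.0238), the bicarbonate transporter Slc4a4 0.23 ± 0.056 (adjusted p = 0.0139) and the folate enzyme ALDH1L1 0.18 ± 0.045 (adjusted p = 0.0158). In the other 31 libraries, AQP4 had 0.19 (adjusted p = 0.0809 in edgeR) and SLC1A2 0.11, and in libraries 32 to 36 it had 0.50. Maob, which astrocytes also express, went the other way at -0.14 ± 0.028 (adjusted p = 0.00654).

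The summed level of the 10 astrocyte markers ran from 8722 to 12260 CPM in the 18 controls, with a median of 10274 CPM. In the 13 other sGC libraries it ran from 10040 to 12303 CPM (median 11121), and in libraries 32 to 36 from 11229 to 16515 CPM (median 12803). These ranges pool the generations, as do the summed levels of microglia, endothelial cells and meningeal fibroblasts below. By generation the astrocyte sum was 8722 to 11442 CPM in controls and 10040 to 16515 CPM in sGC animals of F1. In F2 it was 10647 to 12260 and 10661 to 12803 CPM, and in F3 9634 to 10596 and 10832 to 12473 CPM. The part of astrocyte content in the other results was not tested. Microglia markers, those of the resident immune cells, were all 7 above 0 with a median of 0.07, or 5 of 7 with 0.03 over the 31 libraries. TREM2 alone of them was called (14.3%), at 0.30 ± 0.096 (adjusted p = 0.0474), and lost its call in 25 of 36 fits without 1 library. The summed microglia level was 216 to 292 CPM in controls, 216 to 304 CPM in the other sGC libraries and 264 to 356 CPM in libraries 32 to 36. Endothelial markers gave 0 calls of 11 (2 with an unadjusted p below 0.05), with sums of 465 to 578 CPM in controls and 522 to 678 CPM in libraries 32 to 36.

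Markers of the neurons of the hippocampus gave 0 calls: 0 of 6 for dentate granule neurons, 0 of 7 for CA pyramidal neurons and 0 of 10 for interneurons, with 1, 3 and 1 genes at an unadjusted p below 0.05. All 10 interneuron markers were below 0, with a median of -0.06. Over the 31 libraries 8 of 10 were below 0 (median -0.05), and in libraries 32 to 36 the median was -0.13. Of the CA pyramidal markers 6 of 7 were below 0, with a median of -0.06. This median was -0.02 over the 31 libraries and -0.18 in libraries 32 to 36. Of the granule markers 3 were above and 3 below 0. Summed CA pyramidal markers were at 759 to 857 CPM in F1 controls and 660 to 853 CPM in F1 sGC animals. In F2 they were at 660 to 728 and 640 to 729 CPM, and in F3 at 791 to 825 and 628 to 846 CPM. Libraries 32 to 36 ran from 628 to 796 CPM and included the lowest of F1 and of F3. Summed interneuron markers were at 769 to 889 and 679 to 885 CPM in F1, 776 to 918 and 741 to 909 CPM in F2, and 779 to 884 and 685 to 805 CPM in F3. In libraries 32 to 36 they were at 679 to 807 CPM. Markers of granule, pyramidal and interneurons were detected in every library. Oligodendrocytes (0 of 8, 0 with an unadjusted p below 0.05), their precursors (0 of 6, 1), striatal neurons (0 of 8, 1) and meningeal fibroblasts (0 of 9, 1) gave no calls either. The fibroblast sum lay between 109 and 303 CPM in controls and between 75.6 and 241 CPM in sGC libraries, and its median log2 fold change was -0.86 in F1 and 0.19 in F3. RORA was the 1 called gene of 7 thalamic markers. Of the choroid plexus list 2 of 10 genes and of the blood list 1 of 6 were in all 3 tables.

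Ribosomal proteins build the ribosomes of the cytosol and, from a separate set of genes, those of mitochondria. Of 51 cytosolic ribosomal protein genes 8 were called higher and 0 lower (15.7% higher, against 3.91% of all genes), 48 were above 0, and the median was 0.10. Without libraries 32 to 36, 0 were called, 11 had an unadjusted p below 0.05 in edgeR, 47 were above 0 and the median was 0.06. The count rested on the samples and the test: 34 were called higher without F1, 1 without F2, 0 without F3 and 14 by the likelihood ratio test. By generation the median over 36 libraries was 0.03, 0.08 and 0.20, so that here F3 was highest. RPS28, of the small subunit, was at 66.5 to 89.7 CPM in F1 controls (median 82.4) and at 74.8, 81.0, 74.5, 122 and 89.9 CPM in F1 sGC animals. F2 controls had 42.0 to 58.4 CPM (median 51.1) and F2 sGC animals 54.01 to 91.6 CPM (median 59.5). F3 controls had 74.0 to 82.1 CPM (median 78.4) and F3 sGC animals 84.2 to 107 CPM (median 99.1). The groups overlapped in F1 and F2 and did not overlap in F3. Its log2 fold change was 0.28 ± 0.062 (SE, 18 and 18 libraries; adjusted p = 0.00953 in edgeR). With libraries 32 to 36 left out, RPS28 had 0.25 (adjusted p = 0.102 in edgeR). RPS9 had 0.14 ± 0.035 (adjusted p = 0.0179), RPL34 0.19 ± 0.054 (adjusted p = 0.0276) and RPL28 0.18 ± 0.050 (adjusted p = 0.0267). The calls of RPL34 and RPL28 were each lost in 1 of 36 fits without 1 library. Such genes have many processed copies in mammalian genomes, and reads shared with a copy make their counts uncertain.

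Of 64 mitochondrial ribosomal protein genes 5 were called lower and 1 higher (9.38%, near the 6.77% of all genes), with a median of -0.03. Without F1 there were 2 lower calls, and over the 31 libraries 0 were called, 10 had an unadjusted p below 0.05 and the median was again -0.03. MRPS22 had -0.14 ± 0.030 (adjusted p = 0.00932 in edgeR) and MRPS31 -0.12 ± 0.026 (adjusted p = 0.00932), and the higher gene, named after its value was seen, was MRPL14 at 0.11 ± 0.034 (adjusted p = 0.0414). Of 59 respiratory chain subunits 8 were called lower and 0 higher (13.6% lower, against 2.86% of all genes), with a median of -0.01, and over the 31 libraries 0, with 11 at an unadjusted p below 0.05 and a median of -0.02. By generation the median over 36 libraries was -0.08 in F1, -0.001 in F2 and 0.02 in F3. Without F1 4 were called lower and 33 of 59 were above 0. At an unadjusted p below 0.05 in edgeR 12 were then higher and 5 lower. The called genes named are catalytic or core parts: ATP5A1 and ATP5B of ATP synthase and UQCRC2 of complex III. ATP5B lay between 92.8% and 105% of the control mean in controls, between 92.8% and 99.5% in the 13 other sGC libraries and between 88.6% and 94.1% in libraries 32 to 36, below 100% in all 18. Its log2 fold change was -0.084 ± 0.018 (adjusted p = 0.0094), that of ATP5A1 -0.098 ± 0.021 (adjusted p = 0.00932) and that of UQCRC2 -0.092 ± 0.021 (adjusted p = 0.0111). Of 28 proteasome subunits 6 were called lower and 0 higher (21.4% lower, against 2.86% of all genes), with a median of -0.06, and over the 31 libraries 0, with 8 at an unadjusted p below 0.05 and a median of -0.04. PSMC1, an ATPase of the cap, had -0.097 ± 0.022 (adjusted p = 0.0112) and PSMD13 had -0.079 ± 0.018 (adjusted p = 0.0123).

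Histone modifying and remodelling enzymes set how open chromatin is. Of 44 such genes 5 were called higher and 0 lower (11.4% higher, against 3.91% of all genes), with a median of 0.06. In the other 31 libraries, 0 were called, 5 had an unadjusted p below 0.05 in edgeR and the median was 0.02. CHD3, an ATPase of the NuRD complex, was above the control mean of its generation in all 18 sGC libraries, at 0.14 ± 0.030 (adjusted p = 0.00949 in edgeR). INO80D had 0.29 ± 0.068 (adjusted p = 0.0131), with 0.19 over the 31 libraries and 0.51 in libraries 32 to 36. Of 153 ZNF and ZBTB genes, DNA-binding zinc finger proteins, 10 were called higher and 1 lower (7.19%), near the 6.77% of all genes, and over the 31 libraries 0, with 15 at an unadjusted p below 0.05. ZNF704 had 0.21 ± 0.046 (adjusted p = 0.0104). Of 15 genes that write, erase or read DNA methylation 0 were called (4 with an unadjusted p below 0.05). TET1, which oxidises methylcytosine, had 0.17 ± 0.062 (adjusted p = 0.091 in edgeR), and its control means were over 2-fold apart between tables. Collagens (0 of 34, 1 with an unadjusted p below 0.05) and cholesterol synthesis genes (0 of 21, 1) gave no calls.

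The largest changes were in genes of low level. CXCL10, a chemokine induced by interferon, was at 0.308 to 1.05 CPM in F1 controls (median 0.703) and at 1.01, 0.602, 0.675, 1.12 and 0.617 CPM in F1 sGC animals. F2 controls had 0.284 to 0.791 CPM (median 0.572) and F2 sGC animals 0.623 to 1.4 CPM (median 0.872). F3 controls had 0.134 to 1.13 CPM (median 0.630) and F3 sGC animals 0.475 to 1.48 CPM (median 1.15). In every generation the groups overlapped. Its log2 fold change was 0.59 ± 0.18 (SE, 18 and 18 libraries; adjusted p = 0.0368 in edgeR) and its call was lost in 14 of 36 fits without 1 library. Without libraries 32 to 36, it was 0.64 (adjusted p = 0.148 in edgeR). BRIP1, a DNA repair helicase, had 0.49 ± 0.14 (adjusted p = 0.0283) and TCF7, a factor of Wnt signalling, 0.41 ± 0.12 (adjusted p = 0.0349). On the lower side RHBDL2, a membrane protease, had -0.49 ± 0.15 (adjusted p = 0.0451) and SHH, the hedgehog ligand, -0.29 ± 0.082 (adjusted p = 0.0303). The call of RHBDL2 was lost in 19 of 36 such fits, that of TCF7 in 8 and that of SHH in 3. SHH changed evenly, with -0.28, -0.28 and -0.31 in the 3 generations, and was larger over the 31 libraries (-0.35) than in libraries 32 to 36 (-0.13).

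Fitted alone over the shared genes, F1 called 237 genes (2.11% of 11253), F2 called 0 (0% of 11223, 749 or 6.67% with an unadjusted p below 0.05 by the same edgeR test) and F3 called 559 (4.98% of 11228). NHSL1, an actin regulator called in no generation alone, had for the mean 0.13 ± 0.026 (adjusted p = 0.00809), with 0.23 in F1, 0.09 in F2 and 0.08 in F3. PTPN11, the phosphatase SHP2, was called in none of them either and had for the mean 0.12 ± 0.025 (adjusted p = 0.0081), and all 18 sGC libraries lay above the control mean of their generation. Among called genes the smallest p for a difference between generations belonged to DOK6, a neurotrophin receptor adaptor, with 0.49 in F1, 0.02 in F2 and 0.18 in F3 (adjusted p = 0.0543), to RORA and to PIK3C2A, a lipid kinase, with 0.56, -0.05 and 0.27 (adjusted p = 0.0657).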

How the data were processed

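RNA was sequenced from the hippocampus of 36 animals in 6 groups, by the generation (F1, F2, F3) and lineage (control, sGC) that the labels give. The authors deposited raw counts of reads per gene, without normalization, in 1 table per generation. Per the labels TopHat2 and edgeR were used, and the genome build, annotation and counter of the RNA tables are not given in the sources used here. The tables also hold the authors' own comparisons within each generation (log2 fold changes, average log2 CPM, test statistics, p-values and FDR), which were not used, and the methylation tables, which hold such comparisons alone, were not used either.

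Counts of the 11446 shared genes were joined and filtered with filterByExpr (11390 genes), scaled by TMM and fitted with edgeR 4.0.16 in R 4.3.3 (limma 3.58.1). The main test was the quasi-likelihood test of the sGC term in a model with generation and treatment, adjusted by Benjamini-Hochberg, with calls below 0.05. The study's likelihood ratio test and DESeq2 1.42.0 were alternatives. Differences between generations were tested as an interaction. CPM are reads per 1e+06, and log CPM for scores used a prior count of 2. Total counts of 13303070 to 19635338 per library limit the precision for genes of low level. The fits were tested on simulated counts. Figures were drawn with matplotlib.

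Genes named were the 12 higher and 12 lower with the smallest p among called genes with 1 sign in 3 generations, the 4 higher and 4 lower with the largest change, up to 4 members of each list with the smallest p, the 3 called genes with the smallest p between generations and the 6 called in no single generation. Of these, a part is described, and a few are not reported here. Lists were gene families by symbol and marker lists from general knowledge. The members, lists and tests were chosen with earlier results of these data known, so no list gets a test of its own, and the counts of lists with calls are given beside the shares of all genes. No sequences are shown, because none were in the files used.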

Additional observations from a re-analysis of the deposited data

Results flagged for a closer look

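Single libraries that stood apart from the rest of their group were looked for in 510 groups, 85 genes in 6 groups each, by the gap of the highest or lowest library over the range of the group. There were 47 such cases, spread over 21 libraries. Of these cases 15 were in libraries numbered 32 to 36, and chance alone flags about 1 group in 20.

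Library 35 (F1 sGC replicate 4) stood apart in 9 genes. It was highest in SEPT11 (168 CPM, the others up to 142.7), RPL28 (118 CPM, up to 82.2), RPL34 (330.1 CPM, up to 218) and CX3CR1 (77.3 CPM, up to 60.4). It was lowest in Maob (185 CPM, the others from 223), MDH1 (448 CPM, from 504), EID2 (128.4 CPM, from 149), HSP90AA1 (1709 CPM, from 2055) and SV2A (588 CPM, from 853). Library 33 (F2 sGC replicate 6) was highest in VTI1A (114 CPM), HOMER2 (112 CPM), INO80D (10.5 CPM) and ZNF704 (173.3 CPM), and lowest in SV2A (453 CPM). Library 34 (F3 sGC replicate 6) was highest in CRHR2 (33 CPM). In these 15 cases the library lay on the side of the mean effect of the gene. The same libraries were part of that mean, so this is a description.

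Among the other sGC libraries, F3 replicate 4 was lowest in CAPN10 (35.3 CPM) and FKBP5 (8.06 CPM) and highest in BRIP1 (1.65 CPM) and CX3CR1 (67.0 CPM). F3 replicate 3 was lowest in NR3C1 (94.5 CPM) and highest in STIP1 (207 CPM). F3 replicate 1 was lowest in RPS28 (84.2 CPM). F2 replicate 3 was highest in ASNS (172.5 CPM) and lowest in NR3C2 (141 CPM), and F2 replicate 4 was highest in HSP90AA1 (2416 CPM) and PSMD13 (75.9 CPM). F2 replicate 1 was highest in PTRH2 (23 CPM), F2 replicate 5 in KLF15 (16.7 CPM) and F1 replicate 1 in GRM2 (18.1 CPM).

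Of the controls, F1 replicate 6 was highest in TRAF3 (418 CPM), SHANK3 (291 CPM), RPS9 (170.6 CPM) and CHD3 (657 CPM). F1 replicate 3 was highest in Maob (264 CPM) and lowest in SHANK1 (358 CPM). F1 replicate 1 was lowest in NPNT (33.6 CPM) and F1 replicate 4 in JUN (66.7 CPM). F2 replicate 6 was highest in PURB (32 CPM), and F2 replicate 5 was highest in RPS9 (137.3 CPM) and lowest in TREM2 (2.34 CPM). F2 replicate 2 was lowest in MDH1 (549 CPM) and highest in ZNF704 (158 CPM), and F2 replicate 1 was lowest in EID2 (72.9 CPM). F3 replicate 4 was highest in MORF4L2 (194.3 CPM) and lowest in SREBF1 (36.1 CPM), and F3 replicate 6 was lowest in CRHR2 (18.5 CPM) and highest in AQP4 (874 CPM).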

How the results depend on the processing

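Against 771 genes for the mean (445 higher, 326 lower), DESeq2 called 1066, of them 494 lower. Without libraries 32 to 36, 1 was called, 1 higher and 0 lower, and with a term for them 0, 0 higher and 0 lower. In the alternatives added after the data were seen, the 31 libraries gave 57 by the likelihood ratio test, 172 by DESeq2 and 54 by 6 group means, and libraries 32 to 36 against all controls gave 2122. Without F1 the mean called 475 genes (219 higher), without F2 1162 (538 lower) and without F3 0 (0 higher, 0 lower). Leaving out 1 library gave 393 to 996 genes, 226 to 539 higher and 167 to 484 lower. The lowest counts were without F1 sGC replicate 4 (393) and without F3 control replicate 6 (455). Genes that differed between generations were 138 by the likelihood ratio test, 369 without libraries 32 to 36 and 0 to 318 without 1 library. The mean of F1 and F2 called 19 by the likelihood ratio test, and without libraries 32 to 36 the mean of F1 and F3 called 85 and that of F2 and F3 163. The cause was not tested.

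Same-numbered libraries did not in general deviate together (17 pairs, r from -0.29 to 0.29, 3 over 0.1), so the main test used no pairing. Whether the numbers mark a pairing was not tested. A replicate block gave 410 genes (261 higher, 149 lower) and 1 gene that differed between generations. RLE (776), voom (758), no filter (768) and a mean CPM of 1 or more (799) kept the counts. NR3C2 turned to 0.029 without F3, and FKBP5 to 0.017 without F3 and, without 1 library, ran from -0.049 to 0.0064 (without F3 control replicate 4), and none of these passed. Scores have no test. Promoter motifs were not run, since no promoters were at hand. Genes under about 1 CPM, such as CXCL10, have wide errors.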

Other observations

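In the 31 libraries without numbers 32 to 36, the 369 genes whose effect differed between generations gave another pattern than the mean. Of these, 161 were higher in F1 and lower in F3, and 122 lower in F1 and higher in F3. The difference from control was largest in size in F1 for 197, in F3 for 160 and in F2 for 12. The same libraries chose the 369 genes, so these counts are descriptions. The smallest p belonged to CNR1, UBQLN2 (a shuttle to the proteasome), NDUFC1 (complex I), GNAQ and MAP9 (a microtubule protein). NDUFC1 had -0.27 in F1, 0.05 in F2 and 0.25 in F3, and MAP9 0.18, -0.03 and -0.16. RPS9 and RPL28, both called higher for the mean over 36 libraries, were among the 12 genes with the smallest p here, with -0.14, 0.14 and 0.25 for RPS9 and -0.16, 0.10 and 0.35 for RPL28. These genes were chosen after their values were seen.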
